A study of Mus musculus with 6 samples.

Results

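The expression of 9 genes of mast cells and basophils was examined in leukemias driven by *Hoxa9* with or without *IRX3*. They were chosen by gene symbol as genes of granule proteases (*Cpa3*, *Mcpt8*, *Prss34* and *Cma1*), of the high-affinity IgE receptor (*Fcer1a* and *Ms4a2*), of histamine synthesis (*Hdc*) and of the transcription factors *Gata1* and *Gata2*. All 9 were among the 41128 genes listed in the RNA sequencing data, and 5 of them passed the threshold for testing, among 9522 protein-coding genes that did.

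KIT+ bone marrow (BM) cells of B6.SJL donor mice, congenic with C57BL/6 (the strain the labels give), were transduced with retroviral *Hoxa9* and with either retroviral *IRX3* or the empty control vector MTV, selected with drugs and transplanted into lethally irradiated C57BL/6 recipients together with normal BM. Viable KIT+Gr1+ cells of donor origin were sorted by flow cytometry from the acute myeloid leukemias (AMLs) that followed, and each mouse gave 1 polyA RNA library. The *Hoxa9*/MTV cohort held mice 1.1, 1.2 and 1.4, while *IRX3* was co-expressed in mice 3.2, 3.3 and 3.5 (*Hoxa9*/*IRX3*). Every mouse therefore carried retroviral *Hoxa9*, expressed from a viral vector and not from its own promoter, and no cells without it were sequenced. The comparison asked how the transcriptome of *Hoxa9* leukemia cells differs when *IRX3* is co-expressed. The authors report a later onset of AML in *Hoxa9*/*IRX3* recipients. Time since transplantation and *IRX3* therefore cannot be told apart in this comparison.

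Mast cells and basophils are granulated myeloid cells that carry IgE on a receptor of an IgE-binding alpha chain (*Fcer1a*), a signal-amplifying beta chain (*Ms4a2*) and a pair of gamma chains (*Fcer1g*), and that release histamine and proteases when the receptor is cross-linked. GATA2 is required for both lineages and for hematopoietic stem and progenitor cells, and GATA1 acts in mast cells, erythroid cells, megakaryocytes and eosinophils. Some of these genes are also transcribed in immature cells: *Cpa3* and *Gata2* are known from early hematopoietic progenitors, and *Ms4a2* and *Hdc* from progenitors of granulocytes and mast cells.

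The promoters of 4 tested members are shown because GATA factors bind the letters GATA with A or T before and A or G after them, and Iroquois factors such as IRX3 are known to bind ACANNTGT. Each is read 5′ to 3′ on the strand of the gene from RefSeq (GRCm38.p6), on chr3:20242182-20242431 for *Cpa3*, chr2:126618679-126618928 for *Hdc*, chr19:11623720-11623969 for *Ms4a2* and chr14:56085274-56085447 for *Mcpt8*, all on the minus strand. The first 3 end at the base before the start site, and *Mcpt8* ends at base -77 because a longer annotated transcript starts there. A longer transcript of *Hdc* is annotated as well, and the *Hdc* window lies in an intron of it. Capitals mark matches to this GATA motif on either strand in the first 3, and to ACANNTGT, which reads the same on both strands, in *Mcpt8*. No match of the 2 motifs overlapped another there.

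Cpa3: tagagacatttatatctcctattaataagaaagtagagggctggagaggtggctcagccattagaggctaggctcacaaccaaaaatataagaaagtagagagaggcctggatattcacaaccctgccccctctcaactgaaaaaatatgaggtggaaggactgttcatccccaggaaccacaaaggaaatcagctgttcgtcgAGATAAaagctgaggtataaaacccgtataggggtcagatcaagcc

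Hdc: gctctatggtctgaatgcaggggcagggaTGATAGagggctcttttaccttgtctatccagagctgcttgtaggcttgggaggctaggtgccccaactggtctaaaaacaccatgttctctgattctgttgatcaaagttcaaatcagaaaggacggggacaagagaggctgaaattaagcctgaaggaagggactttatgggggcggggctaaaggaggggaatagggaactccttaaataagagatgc

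Ms4a2: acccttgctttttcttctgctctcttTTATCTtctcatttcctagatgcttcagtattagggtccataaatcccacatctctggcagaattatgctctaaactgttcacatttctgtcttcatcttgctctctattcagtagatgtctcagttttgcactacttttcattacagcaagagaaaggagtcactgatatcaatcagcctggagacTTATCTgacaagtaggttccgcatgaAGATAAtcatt

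Mcpt8: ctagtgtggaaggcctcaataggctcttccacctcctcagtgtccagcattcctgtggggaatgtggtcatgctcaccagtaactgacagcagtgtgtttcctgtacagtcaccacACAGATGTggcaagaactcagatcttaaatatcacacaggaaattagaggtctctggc

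Windows from 250 bases before to 50 bases after the start site were found for all 9 genes, with 2 windows for *Gata2*. A GATA match lay in the windows of 6 genes. *Cpa3* had 1, which begins at base -46, *Hdc* had 1 at base -221 and *Ms4a2* had 3, at bases -224, -37 and -11. *Fcer1a* had 1 at base -92, *Cma1* had 1 at base -79 and *Prss34* had 1 at base -31. Neither window of *Gata2*, nor that of *Gata1* or *Mcpt8*, held these letters. Of 32851 promoter windows of 27025 mouse genes, 29.8% held at least 1 GATA match. ACANNTGT lay in *Mcpt8*, at base -134, and 3 times in *Prss34*, at bases -101, -69 and 17, against 7.38% of all windows. A match of letters describes the sequence and is no measure of binding.

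The data are reads scaled to gene length and library size (RPKM), here with the whole length of a gene and its introns, and rest on 7979246 to 9803621 reads per library. The sorted antigens were read first. *Kit* was transcribed in all mice, with means of 2.75 ± 0.332 RPKM for the *Hoxa9*/MTV cohort and 2.15 ± 0.535 RPKM for the *Hoxa9*/*IRX3* cohort (mean ± SD of 3 mice, as below). *Ly6c2*, which encodes a Gr1 antigen, stood at 444 ± 33.1 and 683 ± 234 RPKM. *Ly6g*, which encodes the Gr1 antigen of neutrophils, was far lower than *Ly6c2* and differed between the cohorts. It stood at 0.108 ± 0.0483 and 1.08 ± 0.373 RPKM (limma's adjusted p = 0.0205). *Ly6c1* had at most 15 reads in any mouse. Mouse *Irx3* had no read in the *Hoxa9*/MTV cohort, where it was listed at 0, and stood at 15.1, 0.421 and 0.148 RPKM for mice 3.2, 3.3 and 3.5. The *Hoxa9*/*IRX3* mice thus differ among themselves in this reading by more than 1 order of magnitude. The retroviral vector carried the coding sequence of human *IRX3*, whereas these reads were assigned to the mouse gene. The authors report that leukemic BM cells of *Hoxa9*/*IRX3* mice expressed *IRX3* at a high level. This reading of mouse *Irx3* cannot be taken as the level of retroviral *IRX3*, because it was not tested how far the retroviral transcript is captured by it. *Hoxa9* averaged 292 ± 103 RPKM in the *Hoxa9*/MTV cohort against 206 ± 45.9 RPKM with *IRX3*, and the cohorts overlapped (limma's adjusted p = 0.420). Libraries of *Hoxa9*/*IRX3* mice were less alike than those of *Hoxa9*/MTV mice, with Pearson's r across genes of 0.917 to 0.925 against 0.978 to 0.983.

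Of the 9 genes, *Gata2* and *Cpa3* were lower in *Hoxa9*/*IRX3* than in *Hoxa9*/MTV leukemia cells, 13.3-fold and 19-fold by the ratio of mean RPKM. A gene was called at limma's adjusted p under 0.05 with at least a 2-fold change on log2(RPKM + 0.5), and by this rule 2 members were called lower and 0 higher. Over all tested genes, 2.03% were called lower and 1.10% higher. The remaining tested members, *Mcpt8*, *Hdc* and *Ms4a2*, did not pass. Among the 5, the cohorts did not overlap in 4: *Hoxa9*/*IRX3* mice lay below in 3 (21.6% of all tested genes) and above in 1 (12.2% of all tested genes). The median log2 fold change of the 5 was -1.21, beside -0.06 over all tested genes. The other 4 members, *Gata1*, *Fcer1a*, *Cma1* and *Prss34*, had at most 3 reads in each library. In bulk RNA of this kind, fewer cells of a type and less RNA per cell cannot be told apart.

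**Figure D1:**
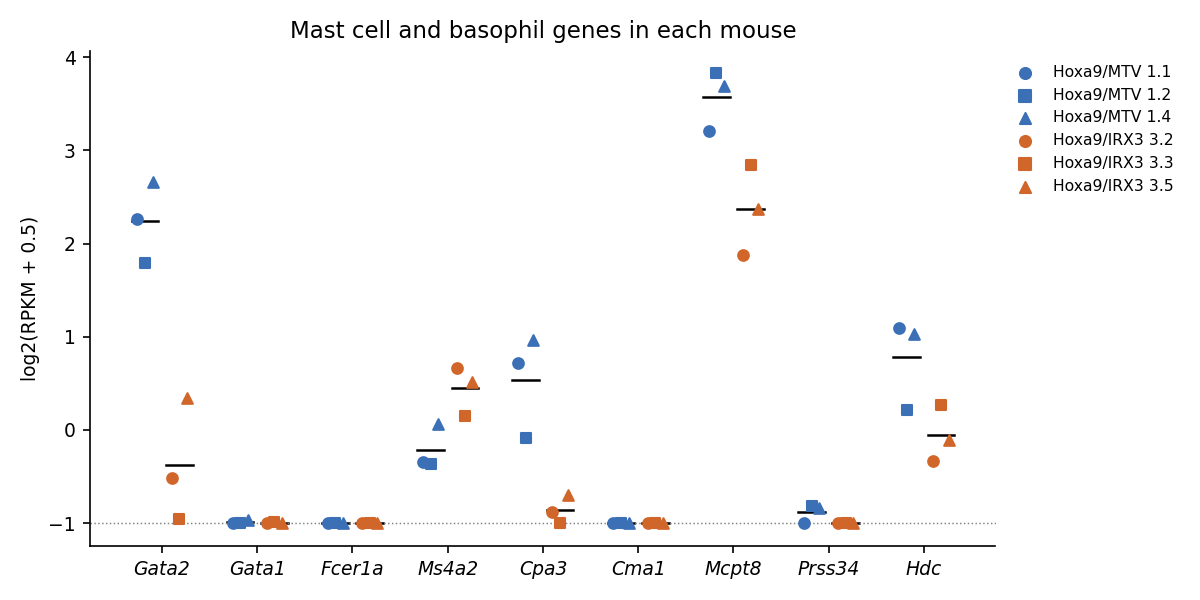
Log2(RPKM + 0.5) of the 9 genes in each of the 6 mice, with *Hoxa9*/MTV in blue and *Hoxa9*/*IRX3* in orange, a symbol for each mouse, black bars at the cohort means and a dotted line at 0 RPKM. *Gata2*, *Cpa3* and *Mcpt8* lie lower in all *Hoxa9*/*IRX3* mice, *Ms4a2* lies higher, *Hdc* overlaps, and the other 4 genes lie at or near the dotted line.

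*Gata2* (ENSMUSG00000015053, chr6:88193891-88207032, plus strand) encodes the GATA factor of hematopoietic stem cells, mast cells and basophils. It was at 4.31, 2.95 and 5.84 RPKM in mice 1.1, 1.2 and 1.4, from 501, 322 and 742 reads. In mice 3.2, 3.3 and 3.5 it was at 0.198, 0.0155 and 0.773 RPKM, from 23, 2 and 81 reads. The cohorts were far apart: the highest *Hoxa9*/*IRX3* mouse, 3.5, reached 13.2% of the highest *Hoxa9*/MTV mouse, 1.4, while the lowest *Hoxa9*/MTV mouse, 1.2, was at 50.5% of it. The log2 fold change on RPKM + 0.5 was -2.62 ± 0.37 (SE), with a 95% interval from -3.50 to -1.73 and limma's adjusted p = 0.0166. *Gata2* was no longer called without mouse 1.1, 1.2 or 1.4 (adjusted p = 0.0761, 0.0586 and 0.0857), although the log2 fold change without any 1 mouse stayed between -2.98 and -2.33.

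*Gata1* (ENSMUSG00000031162, chrX:7959260-7978071, minus strand), the factor that replaces GATA2 as erythroid cells mature, had 2 reads in mouse 1.4, 1 read in mouse 3.3 and 0 in the other 4 mice. It was not tested, and no difference in it was detectable at this depth, since 3 reads correspond to between 0.0163 and 0.0200 RPKM here. *Gata1* was thus at or under this floor in every mouse of both cohorts.

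*Cpa3* (ENSMUSG00000001865, chr3:20215620-20242181, minus strand) encodes carboxypeptidase A3, which is stored in mast cell granules. It was at 1.15, 0.444 and 1.46 RPKM in mice 1.1, 1.2 and 1.4, from 270, 98 and 375 reads. In mice 3.2, 3.3 and 3.5 it was at 0.0425, 0 and 0.118 RPKM, from 10, 0 and 25 reads. The cohorts did not overlap, and the order of the mice from high to low (1.4, 1.1, 1.2, 3.5, 3.2, 3.3) was that of *Gata2*. The log2 fold change on RPKM + 0.5 was -1.40 ± 0.28 (SE), with a 95% interval from -2.07 to -0.72 and limma's adjusted p = 0.0432. It is smaller than the ratio of means because the added 0.5 exceeds the *Hoxa9*/*IRX3* values. *Cpa3* passed the threshold of 0.5 RPKM only through *Hoxa9*/MTV mice. Its call was lost without mouse 1.1, 1.4, 3.2, 3.3 or 3.5 (adjusted p = 0.158, 0.156, 0.0650, 0.0736 and 0.0711) and held without mouse 1.2 (adjusted p = 0.0381). The microRNA gene *Mir7007* lies within *Cpa3* on the same strand, and reads from both cannot be told apart.

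*Mcpt8* (ENSMUSG00000022157, chr14:56082166-56085273, minus strand) encodes a serine protease used as a defining marker of mouse basophils. It was at 8.75, 13.7 and 12.4 RPKM in mice 1.1, 1.2 and 1.4, from 236, 347 and 366 reads. In mice 3.2, 3.3 and 3.5 it was at 3.18, 6.69 and 4.68 RPKM, from 86, 200 and 114 reads. All *Hoxa9*/*IRX3* mice lay below all *Hoxa9*/MTV mice, with mouse 3.3 the nearest to mouse 1.1. Mean RPKM was 11.6 ± 2.57 against 4.85 ± 1.76, a ratio of 2.39, and the log2 fold change was -1.21 ± 0.28 (SE; 95% interval, -1.88 to -0.53). With limma's adjusted p = 0.0621 it was not called, and it was called without mouse 3.3 (adjusted p = 0.0339). The microRNA gene *Mir6949* lies within it on the same strand.

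*Hdc* (ENSMUSG00000027360, chr2:126593667-126619299, minus strand) encodes histidine decarboxylase, the enzyme that makes histamine. It was at 1.64, 0.662 and 1.54 RPKM in mice 1.1, 1.2 and 1.4, from 372, 141 and 383 reads. In mice 3.2, 3.3 and 3.5 it was at 0.295, 0.704 and 0.430 RPKM, from 67, 177 and 88 reads. The cohorts overlapped, because mouse 1.2 lay just below mouse 3.3. The log2 fold change was -0.84 ± 0.28 (SE), with a 95% interval from -1.50 to -0.17, and limma's adjusted p = 0.131 did not pass.

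*Ms4a2* (ENSMUSG00000024680, chr19:11615523-11623719, minus strand), the beta chain of the IgE receptor, was the 1 tested member with a higher mean in *Hoxa9*/*IRX3* cells. It was at 0.290, 0.279 and 0.542 RPKM in mice 1.1, 1.2 and 1.4, from 21, 19 and 43 reads. In mice 3.2, 3.3 and 3.5 it was at 1.09, 0.610 and 0.933 RPKM, from 79, 49 and 61 reads. Every *Hoxa9*/*IRX3* mouse lay above every *Hoxa9*/MTV mouse, with mouse 1.4 close to mouse 3.3. The ratio of means was 2.37, the log2 fold change on RPKM + 0.5 was 0.66 ± 0.19 (SE; 95% interval, 0.20 to 1.12), and limma's adjusted p = 0.103 did not pass.

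The other 3 members were at or near 0. *Fcer1a* (ENSMUSG00000005339, chr1:173221284-173227214, minus strand), the IgE-binding chain itself, was listed at 0 in all 6 mice, where 3 reads would correspond to 0.0516 to 0.0634 RPKM. *Cma1* (ENSMUSG00000022225, chr14:55941451-55944675, minus strand), mast cell chymase, was also listed at 0 in all 6 mice, where 3 reads would correspond to 0.0949 to 0.117 RPKM. *Prss34* (ENSMUSG00000056399, chr17:25298394-25300165, plus strand), a protease of basophils and mast cells, had about 1 read in mice 1.2 and 1.4 and 0 in the other 4. *Fcer1a*, a gene of mast cells and basophils alike, and *Cma1* were thus listed at 0 in every library, whereas *Mcpt8* was read in all 6. Some other genes of basophils were also at or near 0, and others were not. *Il4*, *Ccr3* and *Ptgdr2* were listed at 0 in all mice, and *Cd200r3* had at most 9 reads in any mouse. Receptor genes that were read in all mice included *Il3ra*, with 307 to 477 reads in *Hoxa9*/MTV and 180 to 349 reads in *Hoxa9*/*IRX3* mice. *Il18r1*, below the threshold for testing, had 84, 55 and 74 reads in mice 1.1, 1.2 and 1.4 and 16, 22 and 9 reads in mice 3.2, 3.3 and 3.5. A listed 0 can be a failed estimate, since 2 of 79 ribosomal protein genes were also at 0 in all mice. The presence of mast cells or of basophils was not tested.

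**Figure D2:**
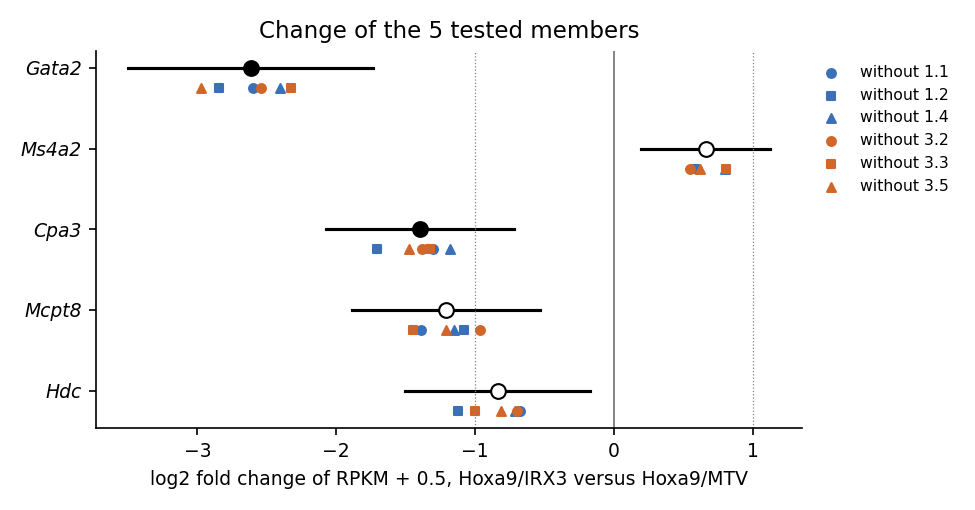
Log2 fold change of RPKM + 0.5 between *Hoxa9*/*IRX3* and *Hoxa9*/MTV for the 5 tested members, with lines for 95% intervals from limma, filled circles for called genes, dotted lines at a 2-fold change, and small symbols below each gene for the value without the mouse in the key. The sign of each gene stayed the same whichever mouse was left out, and only *Gata2* stayed beyond -2.

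With 3 mice against 3, an exact two-sided permutation test of a single gene cannot give a p below 0.1. It gave 0.1 for *Gata2*, *Cpa3*, *Mcpt8* and *Ms4a2* and 0.2 for *Hdc* (20 arrangements each), so the calls rest on the spread that limma estimates across all tested genes.

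The 5 tested members did not vary together among the mice. Within the *Hoxa9*/MTV cohort, mouse 1.2 was the lowest for *Gata2*, *Cpa3*, *Hdc* and *Ms4a2*, where it stood at 50.5%, 30.4%, 40.4% and 25.7% of the highest of the 6 mice. The same mouse was the highest of all for *Mcpt8*. Within the *Hoxa9*/*IRX3* cohort, mouse 3.3 was the lowest for *Gata2*, *Cpa3* and *Ms4a2* and the highest for *Mcpt8* and *Hdc*, which stood there at 48.8% and 42.9% of the highest mouse. *Gata2* and *Cpa3* shared 1 order and the other 3 genes each had another.

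**Figure D3:**
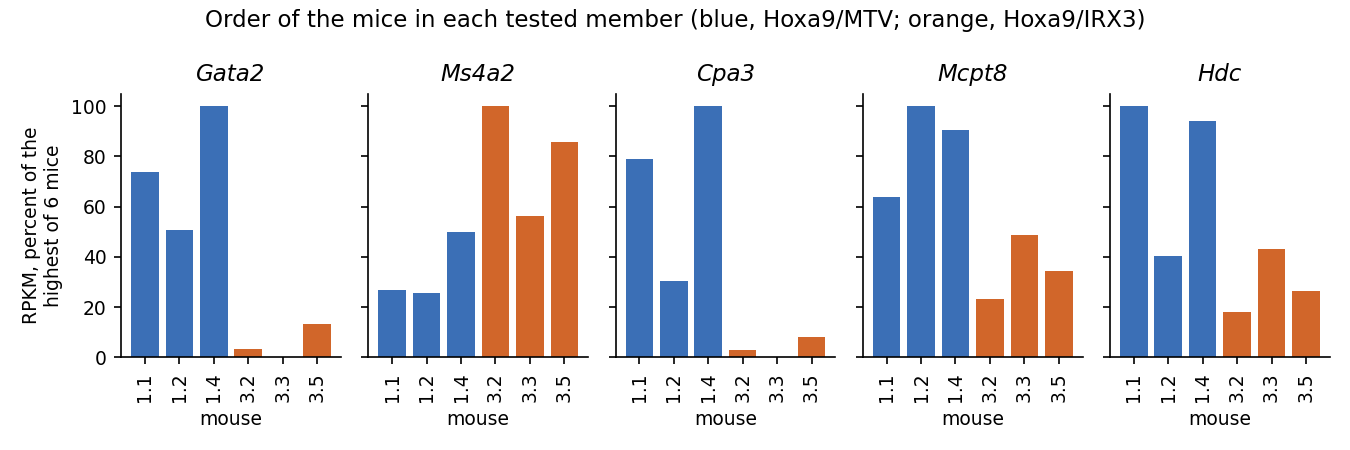
RPKM of each tested member as a percent of its highest mouse (bars from 0), for *Hoxa9*/MTV mice 1.1, 1.2 and 1.4 in blue and *Hoxa9*/*IRX3* mice 3.2, 3.3 and 3.5 in orange. *Gata2* and *Cpa3* show the same order of mice, with mouse 3.3 at 0.266% and 0%, whereas mouse 3.3 is the highest *Hoxa9*/*IRX3* mouse for *Mcpt8* and *Hdc*.

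Levels of different genes were compared per kilobase of exon, since introns take up most of *Cpa3* and *Hdc*. In *Hoxa9*/MTV cells *Mcpt8* was the highest at 35.5 ± 7.84 exon RPKM, followed by *Cpa3* at 17.8 ± 9.11, *Gata2* at 10.6 ± 3.52, *Hdc* at 5.15 ± 2.16 and *Ms4a2* at 1.08 ± 0.434 exon RPKM (SD, n = 3). The ranges of *Cpa3* and *Gata2* overlapped, and those of the other neighbours in this order did not. In *Hoxa9*/*IRX3* cells *Mcpt8* was again the highest at 14.8 ± 5.38 exon RPKM, then *Ms4a2* at 2.55 ± 0.711, *Hdc* at 1.91 ± 0.837, *Cpa3* at 0.936 ± 1.05 and *Gata2* at 0.800 ± 0.962 exon RPKM (SD, n = 3). Here the range of *Mcpt8* stood clear and those of the other neighbours overlapped. *Cpa3* and *Gata2* thus stood above *Hdc* and *Ms4a2* in *Hoxa9*/MTV cells and below them in *Hoxa9*/*IRX3* cells, on mean values.

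*Cma1*, *Mcpt8* and *Prss34* lie in clusters of related serine proteases, and their neighbours were read in gene order. On chromosome 14, *Cma1*, *Cma2*, *Mcpt1*, *Mcpt9*, *Mcpt2* and *Mcpt4*, the chymases of mast cells, were listed at 0 in all 6 mice, *Mcpt8* followed with 86 to 366 reads, *Ctsg* with 9347 to 33094 reads, and *Gzmb* with at most 2 reads. *Ctsg*, which encodes cathepsin G of neutrophil granules, came next to *Mcpt8* among the genes considered and its means stood the other way round, at 417 ± 48.4 RPKM in the control cohort and 881 ± 324 RPKM with *IRX3*. The cohorts did not overlap for *Ctsg* either, but limma's adjusted p = 0.0741 did not pass. On chromosome 17, the tryptases *Tpsab1*, *Tpsb2* and *Tpsg1* were listed at 0 in all 6 mice beside the few reads of *Prss34*. Alignments of low quality had been removed, so that reads shared by near-identical chymases or tryptases may be missing from these genes. Of the 14 granule proteases considered, 3 were tested, 1 was called lower (*Cpa3*), 0 were called higher and 9 were listed at 0 in all mice. The median log2 fold change of the 3 was -1.21.

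**Figure D4:**
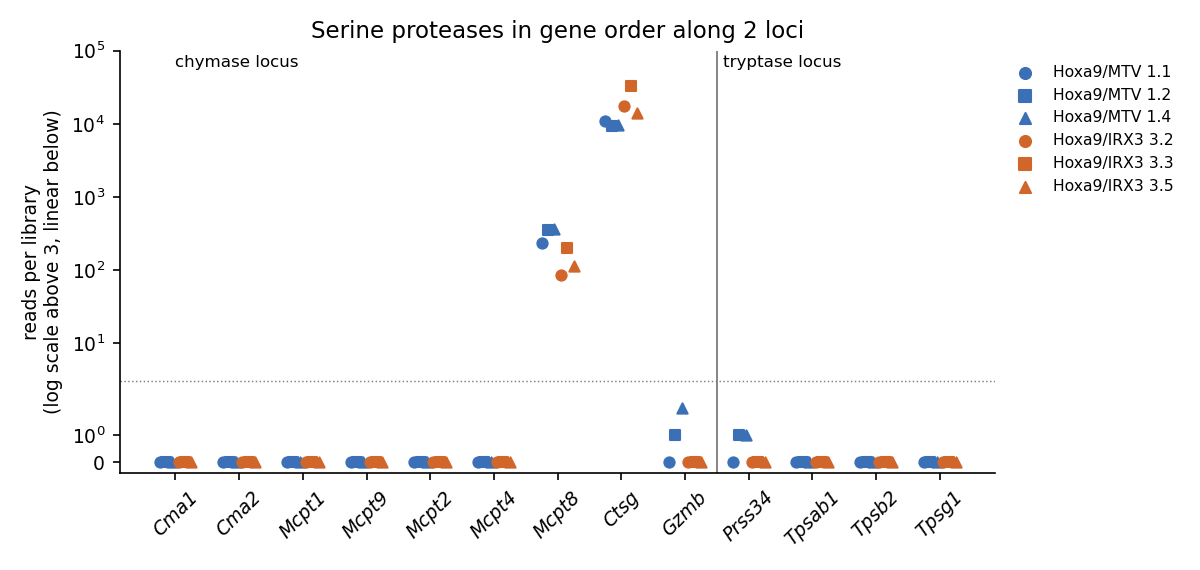
Reads per library of serine protease genes in their order along the chymase locus of chromosome 14 and the tryptase locus of chromosome 17, with a symbol for each mouse, *Hoxa9*/MTV in blue and *Hoxa9*/*IRX3* in orange, and a dotted line at 3 reads, above which the axis is logarithmic. Only *Mcpt8* and *Ctsg* lie above 3 reads, and their cohorts are ordered in opposite ways.

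Of 17 genes of the IgE receptor and its signaling, 15 were tested, 2 were called lower and 0 higher, with a median log2 fold change of -0.21. *Fcer1g*, the signaling gamma chain that IgE and IgG receptors share, fell from 42.3 ± 0.933 to 15.7 ± 2.59 RPKM (log2 fold change, -1.42; limma's adjusted p = 0.00843). *Lat2*, a membrane adaptor that is phosphorylated downstream of the receptor, fell from 9.66 ± 0.298 to 1.88 ± 1.25 RPKM (log2 fold change, -2.26; limma's adjusted p = 0.0338). Both calls were lost without mouse 1.1, 1.2 or 1.4, with adjusted p up to 0.0604 for *Fcer1g* and 0.139 for *Lat2*. Of the 3 kinds of receptor chain, the gamma chain was therefore abundant, at 232 and 85.8 exon RPKM in the cohorts, the beta chain low, at 1.08 and 2.55 exon RPKM, and the alpha chain at 0. The kinases that act next, *Lyn* and *Syk*, were not called, with log2 fold changes of -0.28 and -0.17.

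Among 16 genes of granule contents and lipid mediators, 10 were tested, 1 was called higher and 0 lower, and the median log2 fold change was -0.08. *Srgn* encodes serglycin, the proteoglycan that packs proteases and histamine into granules of many blood cells. It rose from 25.5 ± 6.72 to 79.2 ± 20.6 RPKM (log2 fold change, 1.61; limma's adjusted p = 0.0257). This call was lost without mouse 1.1, 1.2, 1.4 or 3.5, with adjusted p up to 0.120. *Slc18a2*, the transporter that loads histamine into granules, was listed at 0 in all mice, and *Tph1*, which acts in serotonin synthesis, had 1 read in mouse 3.3 alone. Both were chosen after the values of the list were seen.

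Of 16 surface receptors of mast cells and basophils, 7 were tested, 1 was called lower and 0 higher, and 6 were listed at 0 in all mice. The median log2 fold change of the 7 was -0.31. *Itgb7*, an integrin chain that mast cell progenitors use to enter tissues, had 581, 637 and 847 reads in mice 1.1, 1.2 and 1.4 and 20, 9 and 19 reads in mice 3.2, 3.3 and 3.5. It fell 41.4-fold by mean RPKM, from 4.81 ± 0.686 to 0.116 ± 0.0509 (log2 fold change, -3.10; limma's adjusted p = 0.000502), and was called whichever mouse was left out. Like *Cpa3*, *Itgb7* passed the threshold of 0.5 RPKM only through *Hoxa9*/MTV mice. *Kit*, the receptor for stem cell factor, was not called (log2 fold change, -0.31; limma's adjusted p = 0.323). *Il3ra*, the alpha chain of the receptor for interleukin 3, was at 5.02 ± 0.789 and 2.98 ± 0.848 RPKM and was not called (log2 fold change, -0.68; limma's adjusted p = 0.107). *Il1rl1*, the receptor for interleukin 33, was listed at 0 in all mice. Of 10 cytokines, 5 were tested and 1 was called: *Osm*, encoding oncostatin M, fell from 4.83 ± 1.17 to 1.75 ± 0.375 RPKM (log2 fold change, -1.23; limma's adjusted p = 0.0232). The median of the 5 was -1.23, and the call of *Osm* was lost without mouse 1.1, 1.2, 1.4 or 3.5 (adjusted p up to 0.0922).

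Of 22 partners of GATA factors and lineage factors, *Gata1* and *Gata2* included, 15 were tested and *Gata2* was the 1 called gene. The median log2 fold change was -0.36. *Zfpm1*, which encodes the GATA cofactor FOG1, had 26, 24 and 77 reads in mice 1.1, 1.2 and 1.4 and 3, 2 and 14 reads in mice 3.2, 3.3 and 3.5, below the threshold for testing. *Tal1*, which joins GATA factors in a complex with LMO2, had 44 reads in mouse 3.5 and at most 2 in any other mouse. *Lmo2* was at 14.7 ± 4.03 and 10.0 ± 3.32 RPKM and was not called (limma's adjusted p = 0.275). *Gfi1b*, a repressor of erythroid cells and megakaryocytes, had at most 3 reads in any mouse. *Mitf*, the factor that drives mast cell genes together with GATA2, had 169, 186 and 141 reads against 636, 341 and 214 reads and was below the threshold for testing. Its *Hoxa9*/*IRX3* mice all lay above its *Hoxa9*/MTV mice, whereas for *Gata2* they lay below. The myeloid factors *Spi1* and *Cebpa* were not called, with log2 fold changes of -0.57 and 0.16.

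**Figure D5:**
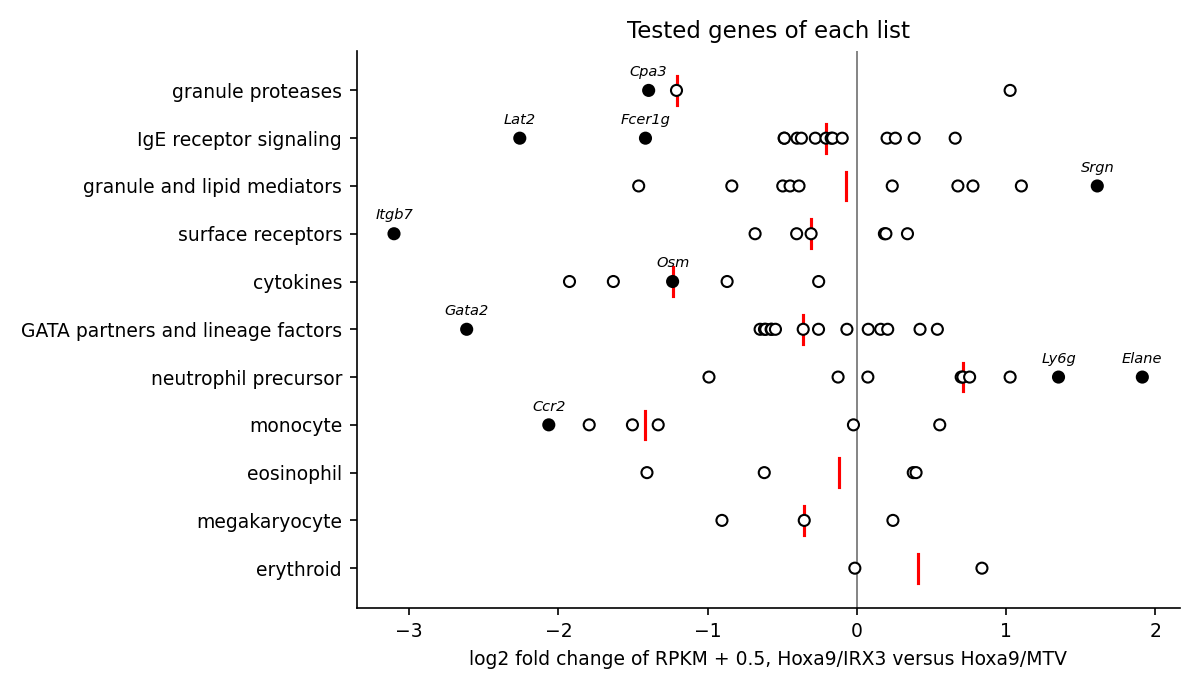
Log2 fold change of RPKM + 0.5 for the tested genes of the lists named on the axis, with filled circles and names for called genes, open circles for the rest and red bars at the medians. In these lists *Cpa3*, *Lat2*, *Fcer1g*, *Itgb7*, *Osm*, *Gata2* and *Ccr2* were called lower and *Srgn*, *Ly6g* and *Elane* higher, and no gene of the eosinophil, megakaryocyte or erythroid list was called.

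Lineages that share GATA factors were read in the same way. Of 14 erythroid genes 2 were tested and 0 called, with 6 listed at 0 in all mice, and the summed RPKM of the list ran from 5.02 to 7.05 in *Hoxa9*/MTV and from 5.30 to 9.01 in *Hoxa9*/*IRX3* mice. *Tfrc*, the transferrin receptor of dividing cells, made up most of it, and without it the sums ran from 0.0891 to 0.264 and from 0.462 to 1.09 RPKM, higher in every *Hoxa9*/*IRX3* mouse. *Klf1*, the defining erythroid factor, had 4, 3 and 1 reads in mice 1.1, 1.2 and 1.4 and 8, 10 and 8 reads in mice 3.2, 3.3 and 3.5. *Car2*, a carbonic anhydrase, had 2, 0 and 0 reads against 57, 17 and 86 reads. Its cohorts did not overlap, but it was not called (log2 fold change, 0.84; limma's adjusted p = 0.123). Of 12 megakaryocyte genes 3 were tested and 0 called. *Itga2b*, the platelet integrin, had 15, 15 and 36 reads in mice 1.1, 1.2 and 1.4 and 10, 8 and 0 reads in mice 3.2, 3.3 and 3.5. Of 8 eosinophil genes 4 were tested and 0 called. The granule genes *Epx* and *Prg2* were near 0, with *Epx* listed at 0 in all mice and *Prg2* at 3, 10 and 13 reads against 1, 0 and 1. *Prg3*, which was tested, had 11, 6 and 30 reads against 1, 0 and 0. Its cohorts did not overlap, with a log2 fold change of -0.62 and limma's adjusted p = 0.162. The cohorts of the other 3 tested eosinophil genes overlapped. Among them, *Siglecf* was not near 0, with 714, 875 and 996 reads in mice 1.1, 1.2 and 1.4. It had 870, 17 and 681 reads in mice 3.2, 3.3 and 3.5. No gene was called among these 3 lists, and limma's adjusted p over their tested genes was 0.123 or more.

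Some markers of other myeloid cells differed between the cohorts, and their part in the results for *Gata2* and *Cpa3* was not tested. Of 9 genes of neutrophil precursors all were tested, and 2 were called higher and 0 lower. *Hoxa9*/*IRX3* mice lay above in 5 (12.2% of all tested genes). The cohorts overlapped in the other 4, with log2 fold changes from -0.99 for *Ltf* to 0.76 for *Lcn2*. Summed RPKM of the list ran from 2708 to 4019 in *Hoxa9*/MTV and from 5867 to 6844 in *Hoxa9*/*IRX3* mice. *Elane* alone averaged 794 ± 230 and 2964 ± 630 RPKM. *Elane*, neutrophil elastase, was called higher (log2 fold change, 1.91; limma's adjusted p = 0.0144), as was *Ly6g*, the Gr1 antigen of neutrophils, at 2 to 5 against 26 to 49 reads (log2 fold change, 1.35; limma's adjusted p = 0.0205). The call of *Elane* was lost without mouse 1.1 or 1.4 and that of *Ly6g* without mouse 1.1, 1.2 or 1.4, with adjusted p up to 0.0745 and 0.103. *Ly6g* passed the threshold of 0.5 RPKM only through *Hoxa9*/*IRX3* mice. Of 9 monocyte genes 6 were tested and 1 called: *Ccr2*, the chemokine receptor of inflammatory monocytes, was lower (log2 fold change, -2.06; limma's adjusted p = 0.00843), a call lost without mouse 1.1 or 1.4 (adjusted p up to 0.0528). The median log2 fold change of the 6 was -1.42, and the cohorts overlapped in 5 of them. Summed monocyte RPKM ran from 492 to 539 in *Hoxa9*/MTV and from 475 to 866 in *Hoxa9*/*IRX3* mice, of which *Ly6c2*, also a sorted antigen, made up most. Without *Ly6c2* the sums ran from 60.8 to 82.4 and from 21.7 to 76.4 RPKM, with overlapping cohorts. Of 6 B cell genes 1 was tested and called lower: *Cd79b* (log2 fold change, -2.65; limma's adjusted p = 0.0383), while *Pax5* and *Ms4a1* were listed at 0 in all mice. That call was lost without any mouse other than 3.5, with adjusted p up to 0.154. Of 7 T and NK cell genes 1 was tested and 0 called. The tested gene, *Nkg7*, was at 32.9, 32.8 and 22.6 RPKM in mice 1.1, 1.2 and 1.4. In mice 3.2, 3.3 and 3.5 it was at 100, 14.9 and 482 RPKM. Its cohorts overlapped, with a log2 fold change of 1.62 and limma's adjusted p = 0.415. *Trac* and *Cd3d* were listed at 0 in all mice.

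The genes whose values over the 6 mice were most like those of the called members were found by the root mean square (RMS) difference of centred log2(RPKM + 0.5) values. For *Cpa3* they were *Lilra6* (RMS difference, 0.10), *Ms4a4c* (0.16) and *Kcne3* (0.18). *Lilra6* was at 1.47, 0.617 and 1.73 RPKM in mice 1.1, 1.2 and 1.4 and at 0.0625, 0 and 0.139 RPKM in mice 3.2, 3.3 and 3.5, so that mouse 1.2 was the lowest *Hoxa9*/MTV mouse and mouse 3.3 was at 0, as for *Cpa3*. For *Gata2* they were *Padi2* (RMS difference, 0.24), *Tlr12* (0.28) and *Nlgn2* (0.28). *Padi2*, which encodes a protein arginine deiminase, was at 4.26, 4.05 and 4.97 RPKM in mice 1.1, 1.2 and 1.4 and at 0.149, 0.176 and 1.02 RPKM in mice 3.2, 3.3 and 3.5. Mouse 3.5 was the highest *Hoxa9*/*IRX3* mouse for all 3 genes most like *Gata2*, as it was for *Gata2* itself. These genes were chosen for likeness over the same 6 mice, so the shared order of mice follows from the choice.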

How the data were processed

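RNA sequencing data of sorted KIT+Gr1+ leukemia cells, with 3 mice in the *Hoxa9*/MTV cohort and 3 in the *Hoxa9*/*IRX3* cohort, were analyzed. Each mouse gave 1 library, and the labels name its cohort. The authors made strand-specific polyA libraries, aligned paired reads to GRCm38 with Bowtie2 2.2.1, kept primary alignments of sufficient quality with SAMtools 0.1.19 and assigned reads to Ensembl genes. The RPKM they deposited divide by the whole span of a gene. Whether counting used the strand is not given in the sources used here.

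Reads behind each RPKM were recovered from the steps between low values and were whole, within 0.01 of a read, for 65.0% of tested genes. Floors of 3 reads cover counting error only, whereas limma's intervals rest on the spread between mice. GENCODE M21 gave the type, position and exon length of 40254 genes, and 874 had none. Exon RPKM are the recovered reads per kilobase of exon. Values of 0 can be failed estimates.

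Protein-coding genes over 0.5 RPKM in at least 1 mouse entered a limma fit (version 3.58.1, R 4.3.3) of log2(RPKM + 0.5) values by lmFit and by eBayes with trended variances. All 9522 p-values were adjusted together by the Benjamini-Hochberg method. The script was tested on simulated data. Exact permutation tests used scipy 1.17.1, and numpy 2.4.6, pandas 2.3.3 and matplotlib 3.10.9 did the rest in Python 3.11.15. Promoters came from a RefSeq table (GRCm38.p6).

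The members, the lists of related genes and the tests were chosen with earlier results of these data known. Named were all members, called genes of the lists, a fixed set of 17 genes of these lineages whatever their value, the 3 genes most like each called member, and the introduced genes. Other named list genes were chosen after their values were seen. The alternatives were other pseudocounts, expression filters, scalings and gene types, no variance trend, sample weights, exon length, limma voom on recovered reads, the study's criterion (unadjusted p under 0.05 and a ratio over 2) and leaving out each mouse.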

Additional observations from a re-analysis of the deposited data

How the results depend on the processing

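The 5 tested members kept the sign of their change under all 18 alternatives. *Gata2* was called under 11 of 12 alternatives that kept all mice and *Cpa3* under 6 of 12. These counts include the study's criterion, whose p is unadjusted. Under the other alternatives, limma's adjusted p ran from 0.0128 to 0.0540 for *Gata2* and from 0.0232 to 0.111 for *Cpa3*. The number of members called lower, 2 in the report, was 1 (*Gata2*) with a pseudocount of 1, with no filter on expression, with a threshold of 1 RPKM, with sample weights and with all gene types. It was 0 with limma voom on recovered reads, where adjusted p was 0.0540 for *Gata2* and 0.111 for *Cpa3*. The study's criterion called 3 lower, with *Mcpt8*, and 1 higher (*Ms4a2*), without adjustment for multiple tests. Leaving out single mice gave 0 to 2 members called lower. Calls over all tested genes numbered 298 in the report, 175 with no filter, 552 with exon length and 664 with the study's criterion, and 61 to 415 without single mice, lowest without mouse 1.4. The cause of these shifts was not tested. Median-of-ratios scaling and quantile normalization moved the median log2 fold change of all genes from -0.06 to 0.01 and 0.02 and left both members called. No paired analysis was possible because the mouse numbers name animals and the cohorts share none. Members with few reads, *Fcer1a*, *Cma1*, *Prss34* and *Gata1*, allow no statement on a difference between cohorts at this depth.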
